A study of Mus musculus with 24 samples.

Results

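Collagen chains were followed as 1 gene family in mouse 10T1/2 fibroblasts, a C3H line of embryonic origin. Members were all genes whose reference name has the form of a collagen chain (Col, a type number, a and a chain number), and 34 of the 35260 gene identifiers with a transcript in the data qualified. The annotation holds 44 such genes. Another 7 had only transcripts without a reference name (Col4a3, Col4a4, Col4a6, Col6a5, Col14a1, Col19a1 and Col24a1), 3 had no transcript (Col6a4, Col6a6 and Col13a1), and these 10 were not members. By type, 10 members are fibrillar chains, 5 belong to basement membranes (Col4a1, Col4a2, Col4a5, Col15a1 and Col18a1), and 19 are of other types. For 25 of the 34 members over 50% of the level lay on assembled transcripts without a reference name, assigned by exon overlap, and 11 members had a reference-named transcript in all 24 libraries.

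Polyadenylated RNA was sequenced from 3 lines, namely LncMyoD knockout clone 2 (KO2), LncMyoD knockout clone 1 (KO1) and wild type cells (WT). LncMyoD is a long noncoding RNA encoded next to Myod1, and MyoD is the transcription factor that turns fibroblasts into muscle cells. Each line was given MyoD adenovirus with LncMyoD plasmid, MyoD adenovirus alone, LncMyoD plasmid alone or no treatment, which makes 12 groups of 2 libraries. Cells grew in 10% fetal bovine serum and were moved to 2% horse serum after transdifferentiation, so virus and medium cannot be told apart where only the MyoD cells changed medium, and the labels name no empty virus or empty plasmid. Each knockout line is 1 clone, so clone and deletion cannot be told apart either. The labels do not say that the libraries of a group came from separate cultures, so p-values measure the spread between these libraries, which may be technical. MyoD was compared within a line over 4 libraries with MyoD and 4 without, pooled over plasmid, and lines were compared over the same sets of 4.

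Collagens are built from 3 chains wound into a triple helix. Fibrillar types I, III and V form the fibers of connective tissue, type IV forms the sheet of basement membranes, and type VI forms beaded filaments around cells, including muscle fibers. Fibroblasts are the main source of types I, III and VI, and chains of 1 type are often encoded as neighbors on a chromosome. On mm10, Col3a1 (chr1:45311538-45349706, plus strand) lies 24.6 kb from Col5a2 (chr1:45374321-45503282, minus strand). Col4a1 (chr8:11198423-11312826, minus) and Col4a2 (chr8:11312805-11449287, plus) run outward from overlapping starts, and Col6a2 (chr10:76595762-76623630, minus) lies 85.2 kb from Col6a1 (chr10:76708792-76726168, minus). Col1a1 (chr11:94936224-94953042, plus) and Col1a2 (chr6:4504814-4541544, plus) stand on separate chromosomes, and Col6a3 (chr1:90765923-90843971, minus) lies on another chromosome than its type VI partners.

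The libraries of the 3 lines differed in more than genotype. Depth was 3.49 to 5.04 gigabases of aligned fragments in KO2, 2.43 to 5.10 in KO1 and 4.4 to 5.93 in WT. A ribosomal repeat window held 2.68% to 7.90% of TPM (transcripts scaled to a library total, a level per transcript length within a library) in KO2, 36.8% to 70.0% in KO1 and 55.6% to 69.2% in WT. The listed TPM of a library summed to 956986 to 979898 in KO2, 710312 to 922352 in KO1 and 810049 to 968266 in WT. Transcripts assigned to no gene held 6.69% to 13.5% of this sum in KO2, 17.7% to 37.2% in KO1 and 15.9% to 21.6% in WT. The ribosomal 36.8% and the unassigned 37.2% of KO1 came from the same library, KO1 with MyoD replicate 1. The other KO1 libraries were at 59.2% to 70.0% and 17.7% to 23.3%. Between 14078 and 15924 genes reached 1 TPM in KO2, against 8264 to 10043 in KO1 and 8659 to 10692 in WT. KO2 libraries correlated with WT libraries across genes at r = 0.620 to 0.689, whereas WT libraries correlated with each other at 0.912 to 0.936. Myod1 was at 929.6 to 1222 TPM in KO2, 1665 to 3641 TPM in KO1 and 3301 to 3735 TPM in WT with the virus, and at most 3.76 TPM in any line without it. Without plasmid the LncMyoD locus was above 0 in 1 of 4 KO2 libraries, 1 of 4 KO1 libraries and no WT library, so its level does not check the knockout labels. The summed level of 8 fibroblast markers was 4777 to 7246 TPM in KO2, 184 to 249 TPM in KO1 and 277 to 460.1 TPM in WT. The KO2 sum was mostly S100a4, Vim and Dcn. Without MyoD, each of the 8 but Thy1 was higher in every KO2 library than in any WT library. With MyoD, Pdgfra and Fn1 overlapped WT, and Thy1 was not higher, at 2.94 to 6.14 TPM in KO2 and 6.15 to 8.24 TPM in WT.

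Collagen was most abundant in KO2 without MyoD. Summed over the 34 members it averaged 2865 ± 695 TPM in KO2 with MyoD and 13006 ± 1532 TPM in KO2 without it (SD, n = 4 each). In KO1 the sum was 353 ± 14.7 TPM with MyoD and 359 ± 52.2 TPM without, and in WT it was 761 ± 56.8 TPM with MyoD and 747 ± 125 TPM without. KO2 was thus the line with the most collagen in either state and KO1 the line with the least, and KO2 was the line whose sets with and without MyoD stood apart. Sums are given with no test. TPM is a share of a library, so the ribosomal window lowers every other value in KO1 and WT. With ribosomal and mitochondrial transcripts left out of the total, collagen took 0.302% to 1.82% of TPM in KO2, 0.0760% to 0.162% in KO1 and 0.217% to 0.293% in WT. The 0.0760% came from KO1 with MyoD replicate 1, and the next lowest KO1 library was at 0.101%. In these bulk libraries fewer cells of a type and less RNA per cell cannot be told apart.

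Within the collagen pool, shares do not depend on the total. Fibrillar chains made up 73.5% ± 2.65 of collagen TPM in KO2 with MyoD and 81.5% ± 0.909 in KO2 without MyoD (SD, n = 4 each). They made up 45.1% ± 3.35 in KO1 with MyoD and 41.0% ± 3.75 in KO1 without, and 46.8% ± 2.31 in WT with MyoD and 44.9% ± 2.22 in WT without. The KO2 libraries did not overlap those of either other line, while KO1 and WT overlapped. Basement membrane chains took 1.97% to 4.58% of collagen TPM in KO2, 9.10% to 14.5% in KO1 and 8.18% to 9.84% in WT. This order depends on unnamed transcripts, since with reference-named transcripts alone the mean share with MyoD was not higher in KO1 than in KO2. Type VI took 14.0% to 20.8% in KO2, 29.4% to 44.5% in KO1 and 37.9% to 45.1% in WT. The 29.4% came from KO1 with MyoD replicate 1, and the next lowest KO1 library was at 37.6%. The pool of KO2 was therefore mostly types I and III, at 63.5% to 77.3%, against 26.7% to 34.6% in KO1 and 35.0% to 39.0% in WT. The heatmap of member levels shows how many chains contributed. A mean of 20 TPM over the 8 libraries of a line was reached by 17 members in KO2, 6 in KO1 and 8 in WT, and 5 members were listed at 0 in every library of KO1 and 5 in every library of WT, against none in KO2.

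**Figure D1:**
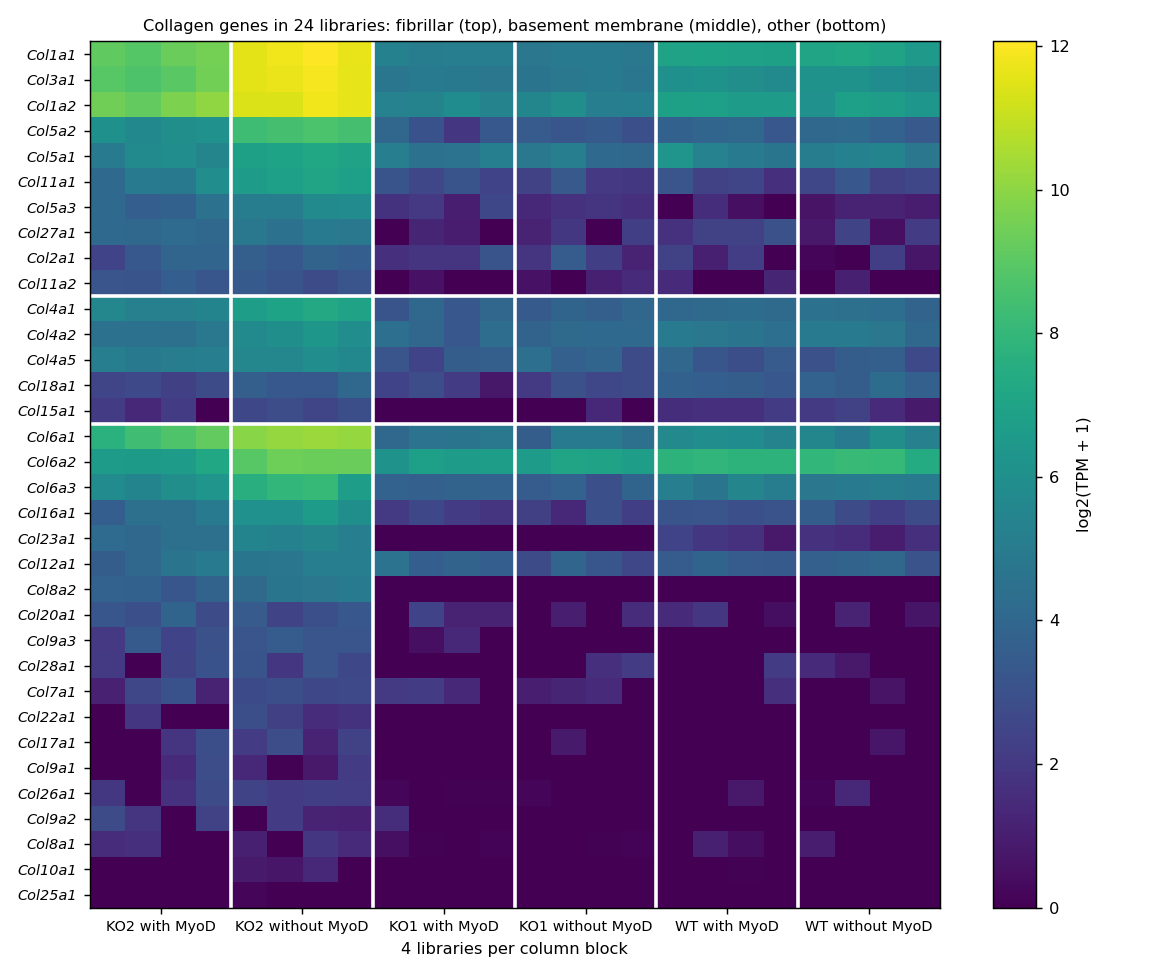
Levels of the 34 collagen genes (rows, by class) in the 24 libraries (columns, by line and MyoD state) as log2(TPM + 1). In KO2 32 members averaged at least 1 TPM, against 20 in KO1 and 19 in WT.

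Col1a1 and Col1a2, which encode both chains of type I, and Col3a1, the single chain of type III, were the highest members of KO2. Col1a1 was at 546, 472, 623 and 740.1 TPM in KO2 with MyoD and at 3073, 3532, 4281 and 3250.1 TPM in KO2 without it. Col1a1 was at 38.1, 32.2, 34.4 and 35.2 TPM in KO1 with MyoD and at 26.3, 32, 30.8 and 27.3 TPM in KO1 without. Col1a1 was at 121, 126, 119 and 115 TPM in WT with MyoD and at 133, 148, 121 and 92.2 TPM in WT without. The 3 lines did not overlap, and in KO2 alone the MyoD libraries lay far below the others. Col3a1 was at 482, 408, 497 and 716 TPM in KO2 with MyoD and at 3050.4, 3299.7, 3802 and 3110.4 TPM without. In KO1 it was at 25.4 to 31.2 TPM with MyoD and 23.9 to 31.7 TPM without, and in WT at 53.6 to 72.3 TPM with MyoD and 47.9 to 70.5 TPM without. Its order of lines was that of Col1a1, again without overlap between lines.

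In WT the highest member was not a fibrillar chain but Col6a2, a chain of the type VI filaments, at 222 to 243 TPM with MyoD and 173 to 284 TPM without. Col6a2 was at 69.9 to 110 TPM in KO1 with MyoD and 100.1 to 129.7 TPM without, also the highest member of KO1. In KO2 it was at 98.7, 93.7, 99.4 and 149 TPM with MyoD and at 479, 669.9, 645 and 632 TPM without. With MyoD, Col6a2 was thus lower in TPM in all 4 KO2 libraries than in any WT library, while without MyoD it was higher in all 4. The difference without MyoD depends on the scaling, since it changed sign with libraries scaled otherwise, as given below. Its partner Col6a1 was higher in every KO2 library than in any WT library, at 206, 328, 425 and 570.1 TPM in KO2 with MyoD and 967, 1144, 1199 and 1148 TPM in KO2 without, against 31.1 to 60.7 TPM over the 8 WT libraries. Several chains of low level were listed at 0 in whole lines. Col8a2, a network-forming chain, was at 8.45 to 13.4 TPM in KO2 with MyoD and 17.2 to 30.6 TPM without, and was listed at 0 in every KO1 and WT library. Col23a1, a membrane-spanning collagen, was at 15.9 to 44.5 TPM in KO2, listed at 0 in every KO1 library and at 0.758 to 4.37 TPM in WT. The plot of member levels by library shows these patterns side by side.

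**Figure D2:**
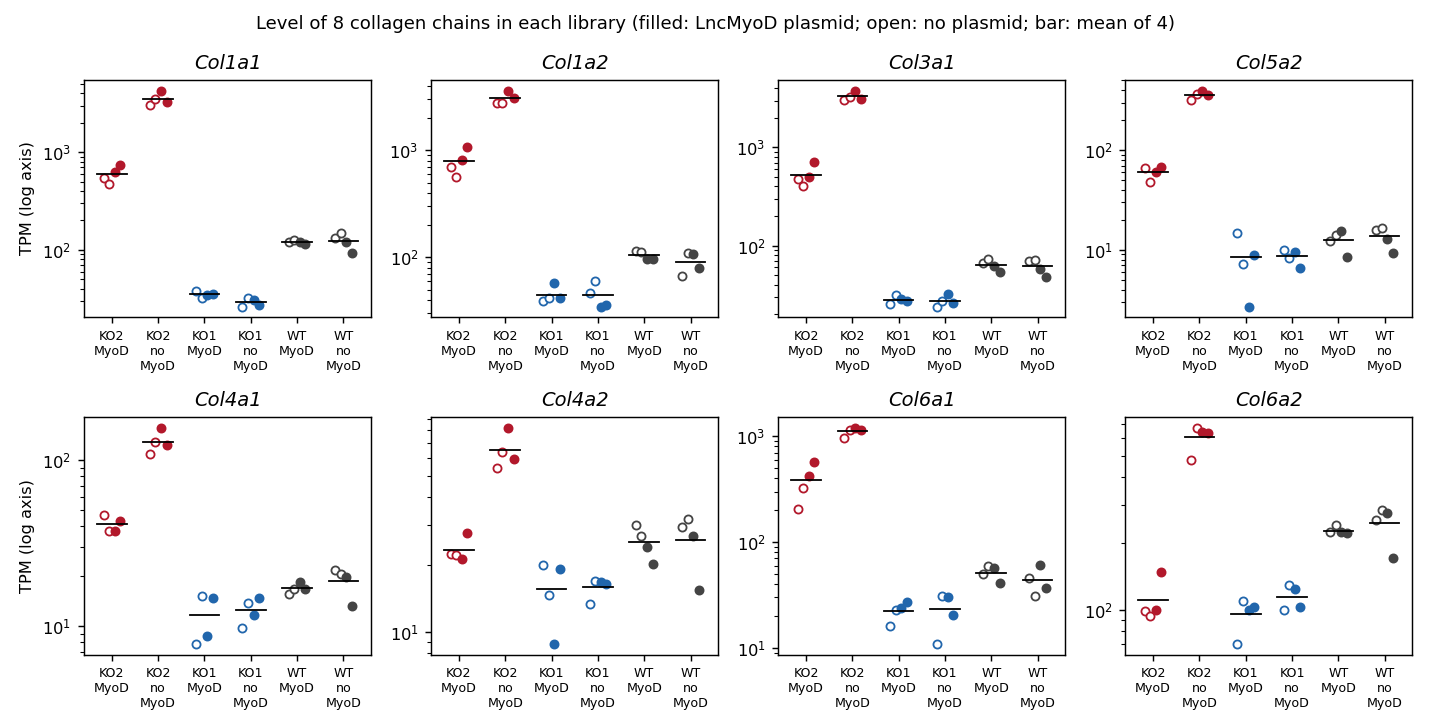
Levels of leading collagen genes in each library, in TPM on a log axis, for KO2, KO1 and WT with and without MyoD (points are libraries, filled with LncMyoD plasmid and open without, and bars are means, n = 4 per set). KO2 libraries without MyoD stand highest for Col1a1, Col1a2, Col3a1, Col6a1 and Col5a2, and in Col6a2 the KO2 libraries with MyoD lie below the WT libraries.

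In KO2, collagen transcripts were broadly lower with MyoD. Of 32 members tested, 18 fell and none rose (limma on log2(TPM + 1) across all genes, Benjamini-Hochberg adjusted p under 0.05 and a log2 change of at least 1), where 10.9% of all 19983 genes tested fell and 2.02% rose. The median log2 change was -1.03 over the 32 members and -0.23 over all genes tested. Of the 32, 8 passed the filter of 1 TPM in 2 libraries through KO2 libraries alone, the called Col8a2 and Col22a1 among them. The count and the median therefore depend in part on that filter. By class, 7 of 10 fibrillar chains, 4 of 5 basement membrane chains and 7 of 17 tested others fell. Under median-of-ratios scaling, which centers the libraries on their typical gene, 11 members fell where 1.87% of genes did.

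The furthest falls were those of Col3a1, Col1a1, Col5a2 and Col6a2. Col3a1 fell by 2.68 ± 0.14 on the log2 scale (SE; adjusted p = 2.7e-09, limma) and Col1a1 fell by 2.58 ± 0.14 (adjusted p = 2.4e-09), and for both the 4 libraries with MyoD lay below the 4 without. Col1a2 fell by 1.99 ± 0.17 (adjusted p = 9.4e-07), at 697, 565, 815 and 1084 TPM with MyoD and 2749.8, 2791, 3626 and 3099 TPM without. Type V collagen is known to regulate the diameter of type I fibers. Col5a2 fell by 2.55 ± 0.28 (adjusted p = 1.2e-05), at 65.8, 48.4, 60.9 and 68.2 TPM with MyoD and 315, 366, 396 and 360.2 TPM without. Col5a1 fell by 1.48 ± 0.26, at 29.6 to 58.6 TPM with MyoD and 115 to 144 TPM without, and Col11a1, a minor chain of such fibers, fell by 1.86 ± 0.32, at 16.5 to 58.6 and 99.7 to 130.2 TPM. None of these sets overlapped. Col5a3 also fell, by 1.42 ± 0.36 (adjusted p = 0.011). The remaining fibrillar members, Col2a1, Col11a2 and Col27a1, did not pass the test.

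All 3 measured type VI chains fell in KO2, Col6a2 by 2.46 ± 0.19 (limma adjusted p = 1.9e-07), Col6a3 by 1.73 ± 0.27 (adjusted p = 2.8e-04) and Col6a1 by 1.63 ± 0.28 (adjusted p = 6.4e-04). Col6a3 was at 55.3, 41.8, 61.4 and 76.4 TPM with MyoD and at 191, 249, 274 and 106 TPM without, and no set of the 3 chains overlapped. Among basement membrane chains, Col4a1 fell by 1.62 ± 0.22 (adjusted p = 7.7e-05), at 37.5 to 47.1 TPM with MyoD and 109 to 157 TPM without. Col4a2 fell by 1.43 ± 0.23 (adjusted p = 3.3e-04), at 21.2 to 27.8 and 54.4 to 81.9 TPM. Col15a1 and Col18a1, whose products carry glycosaminoglycans at basement membranes, fell by 1.33 ± 0.39 and 1.02 ± 0.29, and Col4a5 changed by -0.61 ± 0.30, which did not pass (adjusted p = 0.17). Of the other types, Col16a1, a fiber-associated chain, fell by 1.82 ± 0.28, Col22a1, known from muscle-tendon junctions, by 1.64 ± 0.29, Col23a1 by 1.05 ± 0.23 and Col8a2 by 1.02 ± 0.20. The fall of Col22a1 stood on low levels, since 3 of 4 libraries with MyoD were listed at 0 and the 4 without were at 1.85 to 6.53 TPM. Col12a1, another fiber-associated chain, changed by -0.62 and did not pass (adjusted p = 0.14).

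A call held under each of 5 other scalings of the libraries for 10 of the 18, namely Col1a1, Col1a2, Col3a1, Col5a2, Col11a1, Col4a1, Col6a1, Col6a2, Col6a3 and Col16a1, and no member changed sign. Calls of Col15a1, Col18a1, Col23a1 and Col8a2 rested on single libraries, since leaving out any 1 of the 8 KO2 libraries ended at least 1 of them, with Col15a1 as small as -0.80, Col18a1 -0.85, Col8a2 -0.87 and Col23a1 -0.95. The plot of MyoD changes sets the 3 lines side by side.

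**Figure D3:**
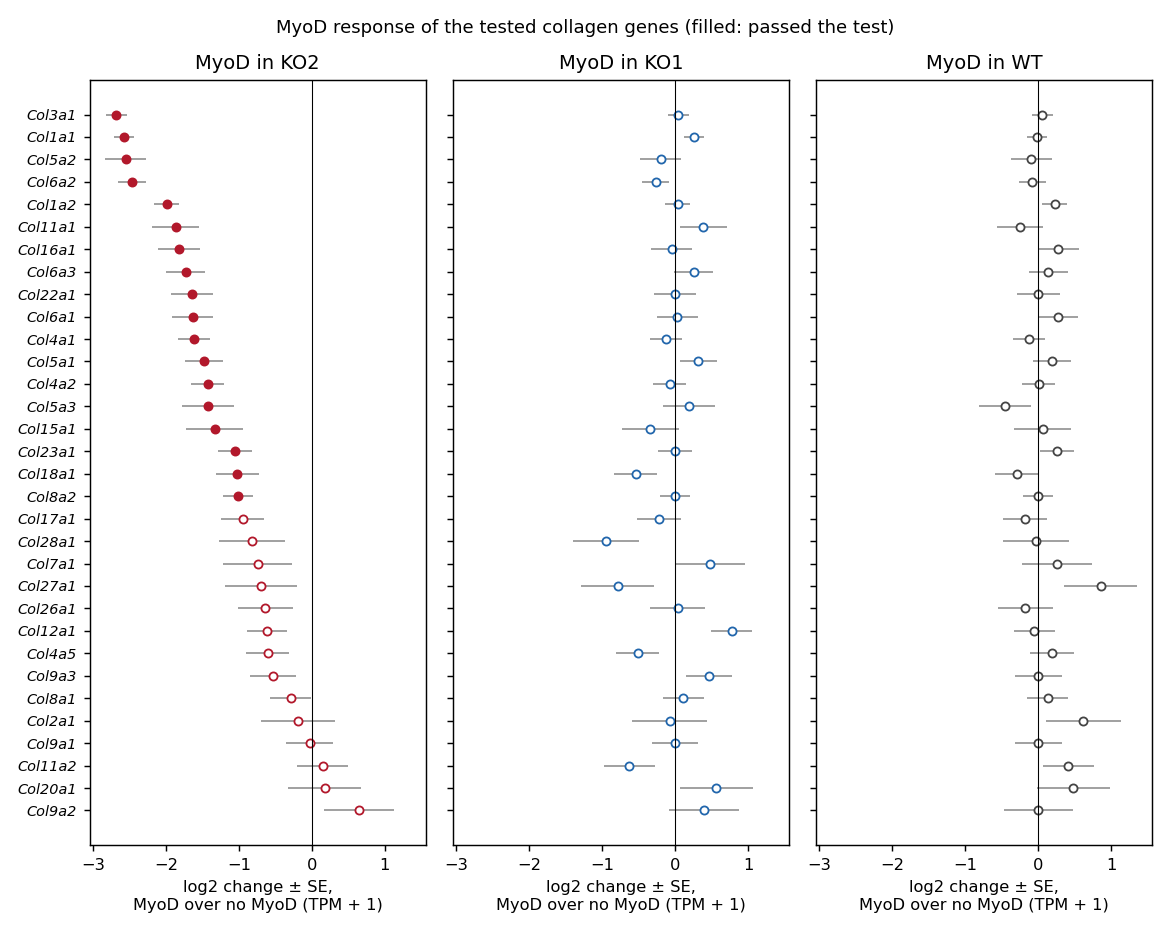
Change in each collagen with MyoD on the log2(TPM + 1) scale, with SE, in KO2, KO1 and WT (4 libraries with MyoD against 4 without in each line). Type I and III chains lie at -1.99 to -2.68 in KO2 and none of them passed in KO1 or WT.

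Upstream sequences are shown for members of this set because they moved together. Of the 10 members called under every scaling, 8 have a promoter entry in the RefSeq table (GRCm38.p6), and for 4 of those the 250 bases before the RefSeq start lie outside every annotated gene. They are given 5′ to 3′ on the gene's strand, with capitals for CCAAT (the box bound by NF-Y), CANNTG (the E-box, the core bound by MyoD family factors) and TATAAA (the TATA box) on either strand.
Col3a1, chr1:45311288-45311537, plus strand: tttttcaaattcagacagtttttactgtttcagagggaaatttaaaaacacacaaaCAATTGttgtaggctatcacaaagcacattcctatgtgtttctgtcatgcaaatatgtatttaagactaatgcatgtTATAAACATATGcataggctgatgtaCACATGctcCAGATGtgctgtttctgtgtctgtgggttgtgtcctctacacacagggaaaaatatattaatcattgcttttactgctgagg
Col11a1, chr3:114030290-114030539, plus strand: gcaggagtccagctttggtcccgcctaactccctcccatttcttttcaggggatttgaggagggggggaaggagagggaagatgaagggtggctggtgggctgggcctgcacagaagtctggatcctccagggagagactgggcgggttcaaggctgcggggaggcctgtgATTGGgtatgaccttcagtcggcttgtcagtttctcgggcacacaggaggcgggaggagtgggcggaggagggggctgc
Col6a2, chr10:76623631-76623880, minus strand: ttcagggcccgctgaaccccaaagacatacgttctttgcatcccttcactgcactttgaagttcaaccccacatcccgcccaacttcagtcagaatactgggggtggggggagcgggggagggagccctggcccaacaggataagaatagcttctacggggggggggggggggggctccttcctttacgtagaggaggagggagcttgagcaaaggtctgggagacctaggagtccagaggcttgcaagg
Col6a3, chr1:90843972-90844221, minus strand: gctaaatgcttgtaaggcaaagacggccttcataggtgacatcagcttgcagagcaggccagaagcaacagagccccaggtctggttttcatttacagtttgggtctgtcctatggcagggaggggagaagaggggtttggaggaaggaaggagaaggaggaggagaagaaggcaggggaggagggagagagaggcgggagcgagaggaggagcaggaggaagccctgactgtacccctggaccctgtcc
The Col3a1 window holds 4 CANNTG and 1 TATAAA, of which TATAAA runs directly into CATATG. The Col11a1 window holds 1 CCAAT, written as ATTGG, and the windows of Col6a2 and Col6a3 hold none of these letters. Over the same 250-base windows of all 32851 promoters in the table, 66.2% hold CANNTG, 33.8% hold CCAAT and 12.4% hold TATAAA, and of the 30 windows of 27 collagen members 14, 12 and 4 do. A match here is a description and no site.

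Along the transcripts of Col1a1, Col3a1 and Col6a2 the difference between KO2 with and without MyoD was larger at the 5′ end, a comparison given with no test. Mean exon coverage per gigabase over the first 10 of the 51 exons of Col1a1 was 115 ± 13.0 in KO2 with MyoD and 1119 ± 192 without (SD, n = 4 each), and over the last 10 exons it was 606 ± 109.9 with MyoD and 2161 ± 337 without. Coverage without MyoD was thus 9.70 times that with MyoD at the 5′ end and 3.56 times at the 3′ end. For Col3a1 the same ratios were 11.5 and 4.06, and for Col6a2 8.65 and 5.14, so each of the 3 genes was lower with MyoD at both ends. Evenness of coverage moved with MyoD in KO2 in general: over all reference-named transcripts of at least 12 exons and a coverage of at least 20, the median 5′ to 3′ coverage ratio was 0.507 to 0.550 with MyoD and 0.611 to 0.674 without. It was 1.02 to 1.35 in KO1 and 1.15 to 1.33 in WT. These medians rest on 1505 to 2214 transcripts in KO2, 108 to 365 in KO1 and 520 to 694 in WT, so the lines are not compared over the same transcripts. Summed muscle markers also moved, to 438 to 925 TPM in KO2 with MyoD against 2.50 to 6.50 TPM without. Summed fibroblast markers overlapped, at 4777 to 6786 TPM with MyoD and 5869.8 to 7246 TPM without, a sum mostly of S100a4 and Vim. Of the 8 markers, 4 were lower with MyoD without overlap: Pdgfra at 34.2 to 45.3 TPM against 104 to 155 TPM, Pdgfrb at 35.8 to 62.6 against 104 to 135, Fn1 at 117 to 277 against 471 to 556 and Dcn at 758 to 1262 against 1356 to 2417. Thy1, Vim, S100a4 and Lum overlapped, as did the summed adipocyte markers, at 39.4 to 54.3 TPM with MyoD and 47.3 to 74.7 TPM without. The part of coverage evenness or of cell composition in the collagen fall was not tested. The plot of exon coverage gives the profiles.

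**Figure D4:**
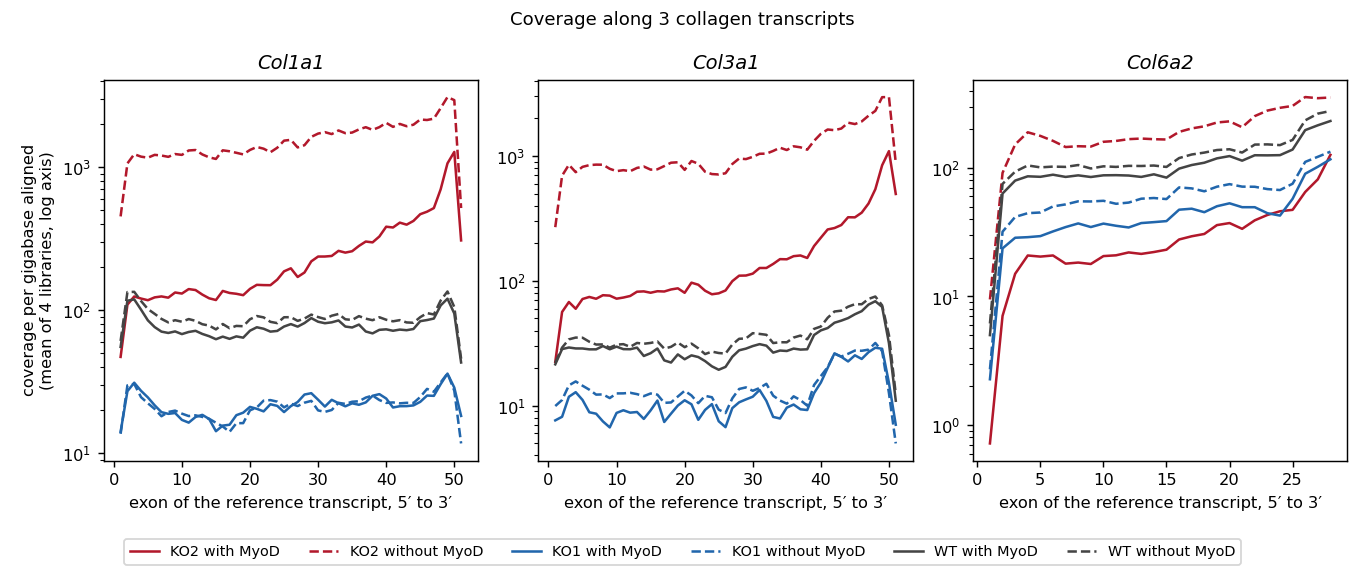
Mean exon coverage per gigabase from the 5′ to the 3′ end of Col1a1, Col3a1 and Col6a2 (log axis) in KO2, KO1 and WT with and without MyoD, averaged over 4 libraries each. In KO2 the profile with MyoD lies below the one without at both ends and further below at the 5′ end.

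In KO1 and WT no member passed the test for MyoD, where 0.115% and 0.135% of all genes tested did. At an unadjusted p under 0.05 there was 1 member in KO1, Col12a1, at 0.78 ± 0.28 (limma adjusted p = 0.46), and none in WT, where changes of the 32 members ran from -0.46 to 0.86. Col1a1 changed by -0.01 ± 0.14 and Col3a1 by 0.05 ± 0.14 in WT. Muscle markers summed to 21.9 to 45.3 TPM in KO1 with MyoD against 0 to 4.60 TPM without. In WT they summed to 64.3 to 91.9 TPM with MyoD against 1.02 to 2.83 TPM without. The sum was thus higher with MyoD in all 3 lines, but in KO1 and WT it was mostly Ttn. Ckm was listed at 0 in every KO1 and WT library. With MyoD, Mylpf was at 128.6 to 266.8 TPM in KO2, 0.778 to 1.57 TPM in KO1 and 1.13 to 2.42 TPM in WT. Myog, Acta1, Tnnc2 and Ckm were likewise higher in every KO2 library with MyoD than in any KO1 or WT library. Ttn and Actc1 overlapped between KO2 and WT with MyoD. The response in KO2 minus that in WT was tested directly. It was lower for 15 members and higher for none, where 5.92% of all genes were lower and 0.831% higher, with a median of -1.16 over members and -0.26 over all genes. Of the 32 members, 8 passed the filter on low values through KO2 libraries alone, the called Col8a2 and Col22a1 among them. Both were listed at 0 in all WT libraries, so their difference is the KO2 change alone. The count and the median therefore depend in part on that filter. Col3a1 differed by -2.73 ± 0.20 (adjusted p = 7.7e-07) and Col1a1 by -2.56 ± 0.19 (adjusted p = 7.8e-07). Col1a1, Col1a2, Col3a1, Col5a2, Col6a1 and Col6a2 were called under every scaling. The response in KO1 minus that in WT passed for no member, with 1 at an unadjusted p under 0.05, where 0.01% of genes passed. Both differences share the WT libraries.

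Some of the genes that make, process and bind collagen fell with MyoD in KO2, where 10.9% of all genes tested did. Of hydroxylases, chaperones and export factors 12 of 21 fell, of propeptide processing genes 4 of 7, of cross-linking genes 3 of 4, of fibril-binding proteins 6 of 14 and of collagen receptors 2 of 7, and none rose. Counts of these lists, here and for KO1 below, were made on TPM alone and not under another scaling. Under median-of-ratios scaling 1.87% of all genes fell with MyoD in KO2. P3h1, a prolyl 3-hydroxylase of collagen, fell by 2.39 ± 0.38, at 12.4 to 29.9 TPM with MyoD and 86.5 to 135 TPM without (limma adjusted p = 3.7e-04). P4ha2, a catalytic subunit of prolyl 4-hydroxylase, fell by 1.91 ± 0.27, at 43.3 to 72.6 and 189 to 244 TPM (adjusted p = 1.3e-04). Thbs1, a matrix glycoprotein, fell by 2.79 ± 0.26, at 21.5 to 37.9 and 159 to 216 TPM (adjusted p = 2.4e-06). Fmod, which binds collagen fibers, fell by 2.03 ± 0.37, at 0 to 0.955 and 1.90 to 7.19 TPM. No gene of these lists passed for MyoD in KO1 or WT.

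Without MyoD, 30 of 32 members were higher in KO2 than in WT and none was lower, but 59.6% of all genes tested were higher too and 1.86% lower, with a median log2 difference of 1.47. Of the 32 members, 8 passed the filter on low values through KO2 libraries alone, which favors a higher call, so this count is no measure of the family. The largest difference was that of Col3a1 at 5.74 ± 0.14 (limma adjusted p = 1.5e-14), with Col1a2 at 5.08 ± 0.17, Col1a1 at 4.84 ± 0.14, Col6a1 at 4.68 ± 0.28 and Col5a2 at 4.65 ± 0.28. Col8a2, Col22a1, Col9a1, Col9a2 and Col9a3 were listed at 0 in all WT libraries, so no fold is given. Col9 chains decorate cartilage fibers. Of the cartilage and bone markers in cells without MyoD, Acan and Matn1 were at 0 in KO2 and WT, Sox9 was at 88.1 to 107 TPM in KO2 and 105 to 170.3 TPM in WT, Runx2 at 12.7 to 19.8 and 11.3 to 18.1 TPM, Sp7 at 0 to 0.646 and 0 to 0.0240 TPM, and Bglap at 4.14 to 11.4 TPM in KO2 and 0 in WT. Col18a1 differed by -0.24 and did not pass. Calls of Col9a1, Col9a2 and Col15a1 did not hold each time a single library was left out. Under median-of-ratios scaling 10 members were higher and 4 lower, where 19.4% and 14.2% of genes were. Col3a1, Col1a1, Col1a2, Col5a2, Col5a3, Col6a1, Col11a1, Col23a1, Col8a2 and Col9a3 were higher under every scaling. Another 8, Col4a1 (2.73), Col4a2 (1.33), Col4a5 (2.47), Col5a1 (1.86), Col6a2 (1.31), Col6a3 (2.62), Col12a1 (1.27) and Col15a1 (1.04), changed sign under at least 1 scaling. Line, clone, library preparation, ribosomal share and 5′ to 3′ coverage cannot be told apart in these differences.

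With MyoD, 23 members were higher in KO2 than in WT, where 50.5% of all genes were, and 1 was lower, where 3.18% of genes were. The 8 members that passed the filter through KO2 libraries alone are among the 32 tested here too, so this count is no measure of the family either. Col6a2 was the lower one, at -1.07 ± 0.19 (limma adjusted p = 7.5e-05), and it was lower under every scaling, at -1.13 with FPKM and -3.36 with median-of-ratios scaling. Leaving out KO2 with MyoD and plasmid replicate 1 gave Col6a2 -0.93, short of the fold threshold. Col3a1 was higher by 3.01 ± 0.14, Col1a2 by 2.87 ± 0.17 and Col6a1 by 2.78 ± 0.28. Col1a1 was higher by 2.28 ± 0.14 in TPM but at -0.030 under median-of-ratios scaling, and Col5a2 passed as higher in TPM but was at -0.031 there. Col5a3 was higher under every scaling, as were Col8a2 and Col9a3. Both Col8a2 and Col9a3 were listed at 0 in all WT libraries, so no scaling could reverse them. Under median-of-ratios scaling 3 members were higher and 7 lower, where 21.2% of genes were higher and 15.2% lower.

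Ratios between chains do not depend on the scaling of a library, and 3 of the 6 computed set all KO2 libraries apart from the other lines. The level of Col6a1 over that of Col6a2 was 1.71 to 4.27 in KO2, 0.109 to 0.266 in KO1 and 0.109 to 0.251 in WT. Col4a1 over Col4a2, which assemble together in type IV, was 1.54 to 2.12 in KO2, 0.392 to 1.05 in KO1 and 0.523 to 0.867 in WT. Col5a1 over Col5a2 went the opposite way, at 0.342 to 1.13 in KO2, 1.74 to 8.52 in KO1 and 2.04 to 6.24 in WT. KO2 libraries did not overlap the other lines in these 3 ratios, while KO1 and WT overlapped. Aligned bases were also divided by the length of all annotated exons of a gene and used instead of TPM. The KO2 ratios were then 3.32 to 4.07 for type VI, 1.4 to 2.13 for type IV and 0.479 to 1.04 for type V, again apart from KO1 and WT. Col1a1 over Col1a2 was 0.683 to 0.836 in KO2 with MyoD, 1.05 to 1.27 in KO2 without MyoD, 0.529 to 0.974 in KO1 and 1.06 to 1.97 in WT, so KO2 overlapped both. Col6a3 over Col6a2 was 0.167 to 0.618 in KO2, 0.0530 to 0.185 in KO1 and 0.0983 to 0.197 in WT, which overlapped, although from aligned bases KO2 stood apart at 0.235 to 0.353, against 0.0243 to 0.0716 in KO1 and 0.0954 to 0.121 in WT. Col3a1 over Col1a1 was 0.798 to 0.993 in KO2, 0.667 to 1.03 in KO1 and 0.465 to 0.573 in WT, so KO2 overlapped KO1. Over 50% of the level of Col6a3, Col1a2, Col5a1 and Col5a2 lay on unnamed transcripts, against 0.5% for Col6a2 and 28.6% for Col6a1, so the split of reads between transcripts can move these ratios. In KO2 without MyoD, Col6a1 over Col6a2 was 1.71 to 2.02 from TPM and 3.34 to 3.95 from aligned bases. The median 5′ to 3′ coverage ratio was 0.507 to 0.674 in KO2, 1.02 to 1.35 in KO1 and 1.15 to 1.33 in WT. The part of coverage evenness in the chain ratios was not tested. The plot of chain ratios shows each library.

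**Figure D5:**
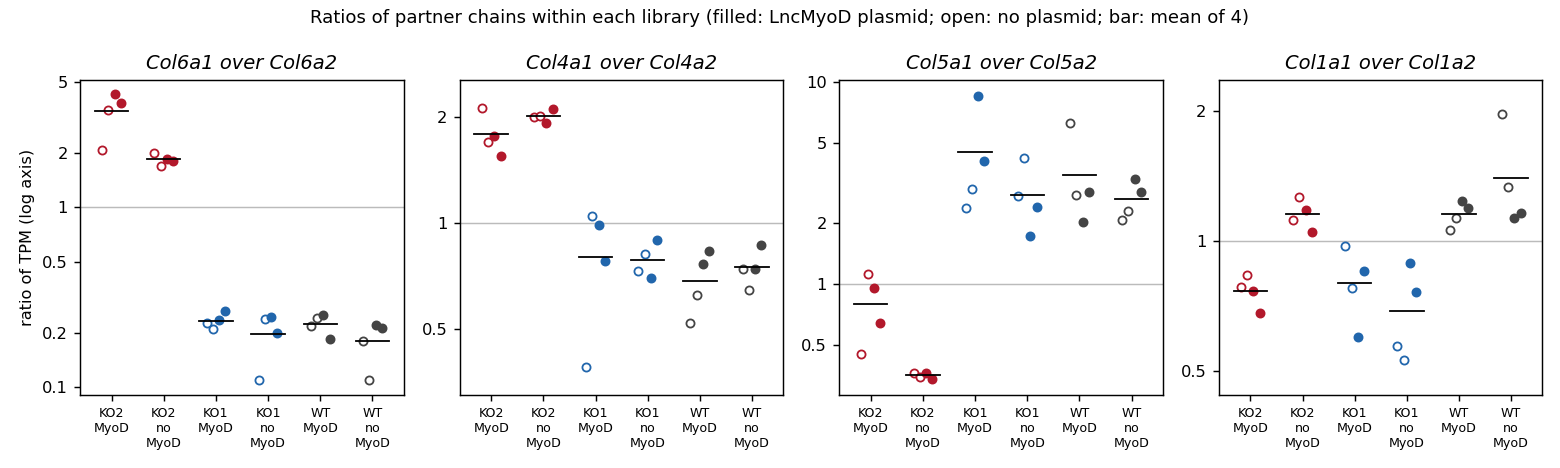
Ratio of the TPM of 2 chains of 1 collagen type in each library (log axis), by line and MyoD state. For Col6a1 over Col6a2 the KO2 libraries sit at 1.71 to 4.27 and all others at or below 0.266.

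In KO1 fewer collagens differed from WT, and nearly all that did were lower. Without MyoD 8 of 32 members were lower and none higher, where 4.06% of genes were lower and 0.295% higher. With MyoD 10 were lower and 1 higher, where 4.95% and 0.495% of genes were. Col1a1 differed most clearly, by -1.76 ± 0.14 with MyoD (limma adjusted p = 6.5e-07) and -2.03 ± 0.14 without (adjusted p = 2.1e-07). Col3a1 was lower, at -1.15 ± 0.14 with MyoD and -1.14 ± 0.14 without. Lower in the same 2 states were Col1a2 at -1.22 ± 0.17 and -1.03 ± 0.17, Col6a2 at -1.27 ± 0.19 and -1.09 ± 0.19, and Col6a3 at -1.32 ± 0.27 and -1.45 ± 0.27. Col6a3 was at 12.2 to 13.2 TPM in KO1 with MyoD and 23.9 to 44.4 TPM in WT with MyoD. Col23a1, listed at 0 in KO1, was at 0.758 to 4.37 TPM in WT. The type V chains Col5a1 and Col5a2 and the type IV chains did not pass in either state, so the difference was not shared by all fibrillar or basement membrane members.

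Among basement membrane chains, Col18a1, the source of endostatin, was at 0.737 to 6.31 TPM in KO1 with MyoD and 3.10 to 6.89 TPM without, against 8.55 to 12.2 TPM in WT with MyoD and 10.8 to 18.1 TPM in WT without. It was lower in KO1, at -1.48 ± 0.29 with MyoD and -1.23 ± 0.29 without. Col15a1 was listed at 0 in 7 of 8 KO1 libraries and at 0.834 to 4.0 TPM in WT. Col6a1 (-1.17 ± 0.28) and Col27a1 (-1.81 ± 0.50) passed with MyoD alone, but the difference between the states was not called for any member. The call of Col6a1 was lost without WT with MyoD replicate 2, KO1 with MyoD replicate 1 or WT with both replicate 1, and that of Col27a1 without any 1 of 6 libraries. Col5a3 was the 1 higher member, at 1.02 to 5.19 TPM in KO1 with MyoD and 0 to 2.01 TPM in WT with MyoD (1.34 ± 0.36, limma adjusted p = 0.028), and its call was lost without any 1 of 6 of the 8 libraries, all but WT with MyoD replicate 2 and KO1 with both replicate 1, and was at 0.93 without KO1 with both replicate 2. Under every scaling Col15a1, Col1a1, Col23a1 and Col6a3 were lower without MyoD, and these and Col18a1 with MyoD. Whichever single library was left out, Col1a1, Col3a1, Col23a1 and Col6a3 stayed called without MyoD, and these with Col1a2, Col6a2, Col15a1 and Col18a1 with MyoD. Without KO1 untreated replicate 1, or without WT with plasmid replicate 1, 4 members were called in cells without MyoD. Ribosomal share overlapped between KO1 and WT. Of the 8 fibroblast markers, 5 (Pdgfra, Pdgfrb, S100a4, Dcn and Lum) were lower in all 4 KO1 libraries without MyoD than in any WT library without MyoD, Vim and Fn1 overlapped, and Thy1 was higher. Dcn was at 3.74 to 5.09 TPM in KO1 and 31.0 to 49.3 TPM in WT (-2.95 ± 0.21), Vim at 67.0 to 75.4 TPM in KO1 and 71.8 to 116 TPM in WT, and Thy1 at 11.7 to 15.7 TPM in KO1 and 6.87 to 8.30 TPM in WT. The part of these markers in the collagen difference was not tested.

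Among fibril-binding genes, Kera and Lum were far lower in KO1 than in WT. Kera, which spaces collagen fibers in the cornea, was listed at 0 in KO1 with MyoD and at 51.2 to 70.5 TPM in WT with MyoD, and without MyoD it was at 0.328 to 1.29 and 59.1 to 79.8 TPM (-5.20 ± 0.19, limma adjusted p = 9.9e-11). Lum, a related proteoglycan, was lower in KO1 at -3.52 ± 0.27 with MyoD and -3.68 ± 0.27 without. Called genes of the further lists are read beside 4.95% of all genes lower with MyoD and 4.06% without. Of hydroxylases, chaperones and export factors 6 of 21 were lower in KO1 in each state, among them P4ha3, a catalytic subunit of prolyl 4-hydroxylase, at -2.25 ± 0.27 without MyoD. Of fibril-binding genes 6 of 14 with MyoD and 5 of 14 without were lower. Propeptide processing had 1 of 7 and cross-linking 1 of 4 lower in each state, receptors had 1 of 7 with MyoD and 2 of 7 without, and no gene of the 5 lists was higher.

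With LncMyoD plasmid 1 collagen passed the test, in KO2. No member passed in KO1 or WT, where 0.05% and 0.005% of genes did, and at an unadjusted p under 0.05 there were 0 members in KO1 and 2 in WT. In KO2 1 member of 32 rose and 7 had an unadjusted p under 0.05, where 0.445% of all genes rose. It was Col9a1, at 1.76, 6.20, 0.782 and 3.48 TPM in the KO2 libraries with plasmid and 0, 0, 1.54 and 0.0618 TPM in those without (1.47 ± 0.32, limma adjusted p = 0.034). The sets overlapped in TPM. Col9a1 was listed at 0 in all KO1 and WT libraries and passed the filter through KO2 libraries alone, most of them with plasmid. The call was lost when KO2 untreated replicate 2, KO2 with MyoD replicate 1 or 2, KO2 with plasmid replicate 2 or KO2 with both replicate 2 was left out, with Col9a1 at 1.12 to 1.47.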

How the data were processed

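Members, lists and tests were chosen with earlier results of these data known. Paired reads of 100 nt came from full-length cDNA that was tagmented, without strand information, per the labels' protocols. StringTie 1.3.3, HISAT2 2.1.0, Trimmomatic 0.36, SAMtools 1.3, bcl2fastq 2.19 and the mm10 build stand in the submitters' processing notes. Per the file headers, StringTie 2.1.2 assembled each library with the GENCODE vM21 annotation as guide, so unannotated transcripts were allowed. The authors deposited TPM, FPKM and coverage per transcript, and TPM is the main unit. These other values sit in 1 text column of the deposited assemblies. Read counts were not used, so the reads behind a value are unknown and no counting interval is given. Genes without an assembled transcript were set to 0, so a 0 may come from assembly.

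TPM was summed per gene with Python 3.11.15, pandas 2.3.3 and bedtools 2.31.1. Unnamed transcripts counted toward a gene of that strand if 50% or more of their exon bases lay in its exons. A minimum of 1 TPM in 2 libraries left 19983 genes, which were tested on log2(TPM + 1) with limma 3.58.1 (trend, R 4.3.3) in 1 model of 12 group means with 12 residual degrees of freedom. Fold changes are on this scale, which understates low genes. A call needs a Benjamini-Hochberg adjusted p under 0.05 and a log2 change of at least 1. On simulated data for MyoD in KO2, 94.5% of 200 genes changed by 2 on the log2 scale were recovered, with 9 false calls. The changed genes were drawn from those of higher mean level, so this rate does not cover members of low level or changes near 1. Members called, members with a line mean of at least 20 TPM and their partner chains are given with values, and up to 4 called genes of each further set. Alternatives were no filter, a pseudocount of 0.1, reference-named transcripts, FPKM, TPM without ribosomal and mitochondrial transcripts, median-of-ratios scaling, aligned bases per gene, other sample sets, a replicate block and each library left out. The 5 other scalings are FPKM, TPM without ribosomal and mitochondrial transcripts, median-of-ratios, aligned bases, and aligned bases without ribosomal and mitochondrial transcripts, the last one chosen after seeing the data. Same-numbered libraries did not deviate together, at -0.052 to 0.034 over 66 pairs of groups.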

Additional observations from a re-analysis of the deposited data

Results flagged for a closer look

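The change with MyoD differed between KO2 and WT for 15 collagens by a direct test of the difference (limma, log2 scale, KO2 response minus WT response). Among fibrillar chains the difference was -2.73 for Col3a1, -2.56 for Col1a1, -2.46 for Col5a2, -2.21 for Col1a2, -1.66 for Col5a1 and -1.61 for Col11a1. For type VI it was -2.38 for Col6a2, -1.90 for Col6a1 and -1.86 for Col6a3. For type IV it was -1.49 for Col4a1 and -1.43 for Col4a2. The others were Col16a1 at -2.09, Col22a1 at -1.64, Col23a1 at -1.30 and Col8a2 at -1.02. Leaving out 1 of the 16 libraries at a time ended the call of Col22a1 for 1 library (WT with plasmid replicate 2), of Col23a1 for 5, of Col11a1 for 11 and of Col8a2 for 12, and the other 11 held each time. Col8a2 and Col22a1 were listed at 0 in all WT libraries, so their difference is the KO2 change alone.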

How the results depend on the processing

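The limits of these values are the unknown read number, assembly that can leave a gene at 0, 1 clone per knockout, and a ribosomal share that differs between KO2 and the other lines. Of 2220 recomputed values of single collagens, 1802 stayed on their side of the threshold, 388 no longer passed and 30 changed sign, and the cause was not tested.

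The number of collagens called for MyoD in KO2 was 10 with FPKM and 11 with median-of-ratios scaling, against 18. For the response of KO2 minus WT, 15 became 8 with reference-named transcripts, 7 with FPKM, 6 with median-of-ratios scaling, 9 without plasmid libraries and 6 with plasmid libraries alone. For KO2 against WT without MyoD, 30 became 11 with reference-named transcripts, 14 with median-of-ratios scaling and 19 with aligned bases scaled to a total without ribosomal and mitochondrial transcripts, an alternative chosen after seeing the data. For KO2 against WT with MyoD, 24 became 7 with reference-named transcripts (3 higher, 4 lower) and 10 with median-of-ratios scaling. For KO1 against WT without MyoD, 8 became 5 with reference-named transcripts, 4 with TPM without ribosomal and mitochondrial transcripts, 5 with median-of-ratios scaling, 3 with only the compared groups in the model, 5 without plasmid libraries and 3 with plasmid libraries alone. With MyoD, 11 became 6 with reference-named transcripts, with median-of-ratios scaling, with aligned bases and without plasmid libraries, 4 with plasmid libraries alone, and 7 with only the compared groups and with the added alternative. The single plasmid call in KO2 became 0 with no filter, with rescaled TPM, with median-of-ratios scaling, with only the compared groups and without MyoD libraries, and 2 with reference-named transcripts or MyoD libraries alone. Leaving out each library gave 15 to 19 calls for MyoD in KO2, 12 to 15 for its response against WT, 22 to 25 for KO2 against WT with MyoD and 27 to 29 without, 8 to 11 for KO1 against WT with MyoD and 4 to 8 without, 0 to 1 for plasmid in KO2, and 0 for MyoD in KO1 and WT, the response of KO1 minus WT and plasmid in KO1 and WT.

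For KO2 against WT without MyoD, Col6a2 was at -0.11 with rescaled TPM, -1.49 with median-of-ratios scaling and -0.90 with the added alternative. In the same order Col4a2 was at -0.059, -1.38 and -0.75, Col12a1 at -0.077, -1.34 and -1.06 (-0.71 with reference-named transcripts), and Col15a1 at -0.018, -0.95 and -1.10. Median-of-ratios scaling put Col5a1 at -0.89, Col4a5 at -0.18, Col4a1 at -0.013 and Col6a3 at -0.14, and the added alternative put Col5a1 at -0.085. For KO2 against WT with MyoD, median-of-ratios scaling put Col1a1 at -0.030, Col5a2 at -0.031, Col16a1 at -0.81, Col27a1 at -0.27, Col4a5 at -0.50 and Col4a1 at -0.98. Reference-named transcripts put Col4a5 at -0.17 and Col4a1 at -1.41, the added alternative put them at -0.77 and -0.80, and rescaled TPM put Col4a1 at -0.072. For KO1 against WT with MyoD, reference-named transcripts put Col6a1 at 0.021.

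With reference-named transcripts the fibrillar share was 85.7% in KO2 with MyoD, 37.5% and 28.8% in KO1 with and without MyoD, and 44.1% and 39.7% in WT with and without MyoD. The basement membrane share was 1.76% in KO2 with MyoD, 1.48% and 5.55% in KO1 and 5.71% and 6.88% in WT, in the same order. Total collagen was 1323 and 10514.9 TPM in KO2 with and without MyoD, 161 and 179 TPM in KO1 and 480.2 and 497.5 TPM in WT. Rescaled TPM gave totals of 3637 and 15367 in KO2, 1119.8 and 1287 in KO1 and 2499.8 and 2343 in WT. With type IV alone, the basement membrane share was 1.88% in KO2 without MyoD, 11.7% in KO1 without MyoD, and 6.83% and 7.06% in WT with and without MyoD.

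The replicate block gave 18 calls for MyoD in KO2, 29 for KO2 against WT without MyoD and otherwise the same counts as without it. Same-numbered libraries are not paired by the labels or by these data.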
